A study of Cynoglossus semilaevis with 30 samples.

Results

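The brain of large and of small female Chinese tongue sole was compared in 6 RNA-seq libraries, 3 from each size class, chosen by their tissue label out of 30 libraries of 5 tissues. Chinese tongue sole (Cynoglossus semilaevis) is a marine flatfish farmed in China. Both groups were females aged 1.7 years, and no treatment or genotype is given in the labels. Each library held the RNA of 2 fish, which were combined before sequencing, so a library is a pool and the spread between libraries is a spread between pools. The labels do not say how large and small fish were told apart, nor which parts of the brain were taken. The p-values below measure the spread between these 3 pools of each group.

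The fish brain controls feeding and growth largely through neuropeptides of the hypothalamus. Agouti-related protein and neuropeptide Y are known to promote feeding, and melanocortins, cut from pro-opiomelanocortin, to restrain it. Melanin-concentrating hormone lightens the skin of fish and has been tied to feeding and stress. The main glia of the adult fish brain are radial glia, which contain glial fibrillary acidic protein, express the brain form of aromatase and keep dividing through life.

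Library totals ran from 6130667 to 8270967 estimated counts, and the limit that a count of 0 allows (3 counts, for counting error alone) was 0.363 to 0.489 CPM (counts scaled to a common library total). The median levels of 57 neuron markers over the libraries of a tissue summed to 7327 CPM in brain. The sums were 1629 in pituitary, 166 in gonad, 48.5 in muscle and 23.3 in liver. In each of the 6 brain libraries these markers summed to between 3579 and 4917 FPKM (explained below). Large replicate 3 stood apart. Of its counts 21.3% came from mt-co1, a mitochondrial gene, where the other 5 libraries had 8.22% to 10.7%. Its 432 gonad-typical genes (at least 50 CPM in gonad and 20 times the level of any other tissue) stood at a median of 1.83% of their gonad level, against 0.607% to 0.959% elsewhere. The first principal component, with 37.3% of the variance, separated this library from the other 5. Levels are printed as the authors' FPKM, which scales fragments to transcript length and library size. The median log2 difference of all genes, large minus small brain, was -0.14 on the log2(FPKM + 1) scale and -0.00 in the fit of counts, so fold changes and tests are from the counts.

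Between the size classes, 2 of 16878 genes tested passed an adjusted p of 0.05 with edgeR, which is 0.0118% of them, 1 higher and 1 lower in large brain (0.00592% each). Unadjusted p-values were under 0.05 for 6.33% of genes, 3.57% higher and 2.77% lower. Without large replicate 3 they were under 0.05 for 1274 of 17193 genes, in either direction. The 3 large and 3 small libraries did not overlap in normalized CPM for 6.07% of genes on the higher and 6.01% on the lower side. In FPKM these shares were 2.74% and 11.9%, 14.6% together. DESeq2 called 103 genes (0.604% of those it gave an adjusted p), 59 higher (0.346%) and 44 lower (0.258%). Of the gene lists described below, it called most in oocyte and egg genes (9 higher) and in appetite and stress neuropeptides (6 lower).

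The gene that rose was LOC103389442, annotated as grancalcin-like. Grancalcin is a calcium-binding protein of the penta-EF-hand family, known in mammals from white blood cells. LOC103389442 stood at 0.19, 0 and 0.19 FPKM in the small brain libraries, in total 2 counts. In the large libraries it stood at 27.16, 15.62 and 22.12 FPKM, in total 414 counts. All 3 large pools expressed the gene at a moderate level, and the small pools were at or near 0. The ratio of large to small was 245, with a 95% counting interval from 67.5 to 2034 (exact Clopper-Pearson, counting error only). Group depth for this ratio was taken from the counts and normalized CPM of 1 neuron gene, elavl3, so the scaling is approximate. The edgeR fit gave a fold change of 217. The edgeR adjusted p was 0.00488. Without small replicate 1 it was 0.0685, and without small replicate 3 it was 0.0729.

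The same division by size class was seen outside the brain. LOC103389442 was listed at 0 in all 3 small libraries of pituitary, liver, gonad and muscle. Large libraries held 23.57, 12.78 and 13.82 FPKM in pituitary and 12.56, 20.31 and 18.38 in gonad. Lower levels of 3.40, 2.65 and 0.37 FPKM were found in large muscle, and liver had 3.59, 2.86 and 0. Its neighbour on the same chromosome in the RefSeq gene table (assembly Cse_v1.0), the sorcin-like gene LOC103389441, also encodes a member of the penta-EF-hand family. That gene was present in every brain library, with 168.20, 174.61 and 163.00 FPKM in small and 127.33, 156.26 and 115.36 in large. How the counting treated reads shared between such relatives is not given in the sources used here. Among the 25 tested penta-EF-hand and other calcium-binding proteins, LOC103389442 was the 1 that passed with edgeR, and the median log2 fold change was -0.08. DESeq2 called 2 genes of the list higher and 0 lower (0.346% and 0.258% of all genes). On each side 3 of the 25 had an unadjusted p under 0.05 (3.57% of all genes higher, 2.77% lower). The parvalbumin gene LOC103382348 stood at 205.75, 89.43 and 68.94 FPKM in small and at 23.36, 1.43 and 29.88 in large brain. It did not overlap, with a log2 fold change of -2.54 (SE 0.86, edgeR adjusted p = 0.665). Neurocalcin delta (ncald), a neuronal calcium sensor, had 52.09, 58.40 and 59.06 FPKM in small brain and 105.70, 94.67 and 63.81 in large. Its groups did not overlap, with a log2 fold change of 0.75 (SE 0.15, edgeR adjusted p = 0.435).

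LOC103395967, annotated as angiopoietin-related protein 4-like, fell in large brain. Angiopoietin-related protein 4 inhibits lipoprotein lipase and is induced by fasting in mammals. Small libraries held 32.24, 22.18 and 24.20 FPKM and large libraries 3.47, 2.09 and 1.93. The groups lay far apart and each was tight, with means of 26.2 ± 5.32 and 2.50 ± 0.847 FPKM (SD, n = 3 each). The log2 fold change was -3.25 (SE 0.26, edgeR adjusted p = 0.0108). Leaving out 1 library at a time gave log2 fold changes between -3.53 and -3.07, and the edgeR adjusted p was 0.0685 without small replicate 1, 0.0741 without small replicate 3, 0.107 without large replicate 2 and 0.0583 without large replicate 3. This gene is most abundant in liver, with means of 155 FPKM in small and 126 in large females. Of the 34 liver-made plasma proteins tested, 8 had an unadjusted p under 0.05 on the lower side (2.77% of all genes). Their median log2 fold change was -1.07 in brain. That median ranged from -1.66, without large replicate 2, to -0.12, without small replicate 3, and was -0.03 without both replicates 3. The liver-typical genes of small replicate 3 stood at a median of 0.510% of their liver level, against 0.0481% to 0.164% in the other 5 libraries. The summed level of the plasma proteins was 4570, 3888 and 3947 FPKM in small and 5367, 2043 and 2183 in large brain, with overlap. Large replicate 1 had the highest sum but the lowest level of liver-typical genes (0.0481%), so the 2 measures did not go together. The part of liver-type RNA in the fall was not tested.

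**Figure D1:**
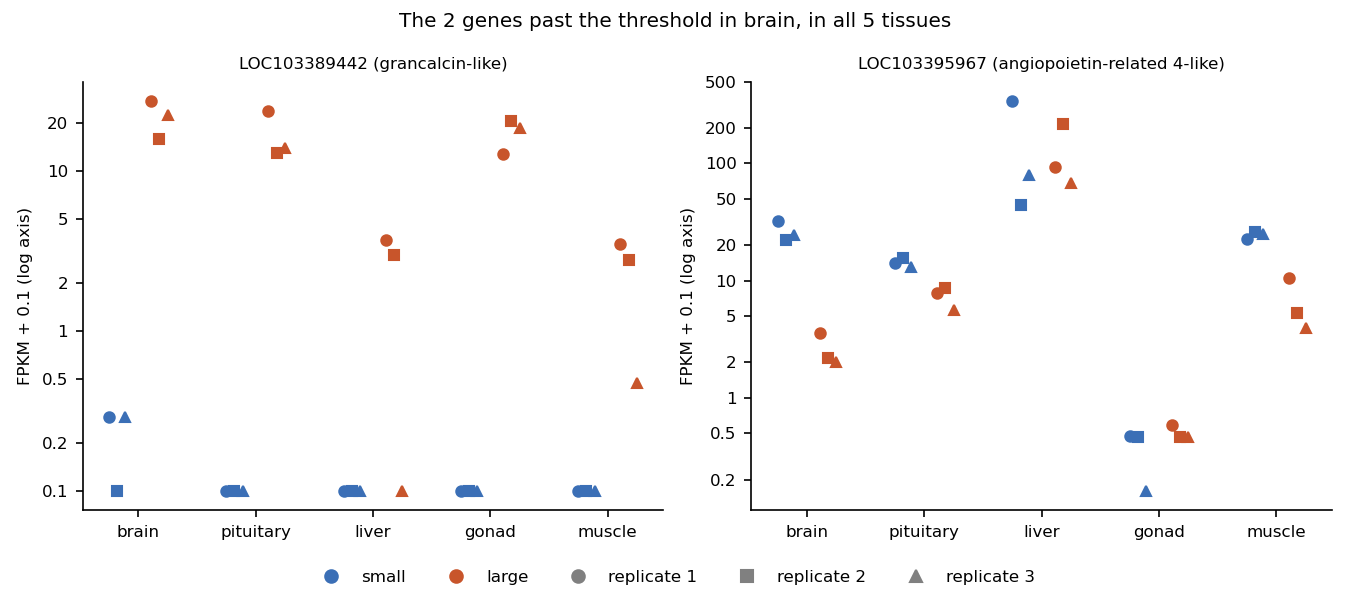
FPKM plus 0.1 on a log axis for the 2 genes past the threshold in brain, by tissue and size class, with 1 point per library (3 per group). LOC103389442 is at or near 0 in every small library and above 12 FPKM in all large brain, pituitary and gonad libraries; LOC103395967 is lower in all large than in all small libraries of brain, pituitary and muscle.

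The size effect on LOC103395967 was also set against that in pituitary. There the small libraries held 14.13, 15.61 and 13.02 FPKM and the large 7.67, 8.60 and 5.55. The brain effect minus the pituitary effect was -2.23 on the log2 scale (SE 0.32, edgeR interaction test, adjusted p = 0.0411), 1 of 12 genes past the threshold of 17660 tested (0.068%). With 1 library left out, the edgeR adjusted p ran from 0.0352 to 0.175. It missed the threshold without any 1 small library of either tissue, without large brain replicate 2 (0.0650) and without large pituitary replicate 1 (0.0691). In the fit of all 30 libraries the value was -2.22 (SE 0.70) and the edgeR adjusted p was 0.241, so the difference between the tissues was not called there. In muscle its levels were 22.45, 26.05 and 24.82 FPKM in small against 10.51, 5.22 and 3.80 in large females, again without overlap.

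Feeding peptides of the hypothalamus held the largest differences on the lower side, and none of them passed the edgeR threshold. DESeq2 called 6 of the 47 listed genes of appetite and stress neuropeptides lower and 0 higher. Of all genes it called 0.258% lower and 0.346% higher. Of the 35 tested genes of appetite and stress neuropeptides, 9 had an unadjusted p under 0.05 on the lower side and 1 on the higher, where 2.77% and 3.57% of all genes did. Their median log2 fold change was -0.50 against -0.00 over all genes. It was -1.06 without large replicate 2, -0.17 without small replicate 2 and -0.25 without large replicate 3. Of the 35, 5 were at least 5 times more abundant in another tissue. The other 30 had a median of -0.40, with 6 at an unadjusted p under 0.05 on the lower side and 1 on the higher. Like the other lists, this one was chosen with earlier results of these data known.

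Melanin-concentrating hormone is encoded by a pair of precursor genes. The gene named pmch stood at 195.07, 362.45 and 129.84 FPKM in small brain and at 3.85, 12.16 and 11.40 in large. Every small pool lay far above every large pool. The log2 fold change was -4.47 (SE 0.51, edgeR adjusted p = 0.111). The second precursor, pmchl, stood at 216.40, 280.15 and 125.22 FPKM in small and at 1.43, 19.82 and 14.39 in large brain, with a log2 fold change of -3.96 (SE 0.65, edgeR adjusted p = 0.347). Both were lowest in large replicate 1. Outside the brain pmchl was at most 9.48 FPKM, in pituitary, while pmch was also found in gonad, with means of 19.2 FPKM in small and 25.9 in large females.

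Agouti-related protein (agrp), an antagonist of melanocortin receptors, was nearly lost from the large libraries. Small brain held 13.35, 57.87 and 13.61 FPKM, in total 440 counts. Large brain held 0.20, 0 and 0.48 FPKM, in total 3 counts. Small replicate 2 was the highest by a wide margin, and the groups did not overlap. The ratio of small to large, scaled by elavl3 as for LOC103389442, was 124, with a 95% counting interval from 42.0 to 602. With the spread between pools the log2 fold change was -6.74 (SE 0.97, edgeR adjusted p = 0.240).

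Of 3 pro-opiomelanocortin-like genes, 2 were lower in every large pool. LOC103389827 had 19.64, 24.34 and 18.88 FPKM in small brain and 0.61, 2.88 and 2.06 in large, a log2 fold change of -3.34 (SE 0.42, edgeR adjusted p = 0.169). LOC103380837 had 4.18, 5.96 and 3.28 FPKM in small and 0.25, 0.35 and 0.44 in large, a log2 fold change of -3.50 (SE 0.48, edgeR adjusted p = 0.225). The third, LOC103393769, overlapped between the groups, with 12.22, 18.61 and 7.53 FPKM against 7.90, 7.68 and 1.04 and a log2 fold change of -1.07 (SE 0.58, edgeR adjusted p = 0.834).

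These genes are also pituitary genes, and the sum of pituitary hormone markers was lower in large brain too. Without the pro-opiomelanocortin-like genes, the 17 pituitary hormone markers summed to 53.1, 68.3 and 46.2 FPKM in small brain and to 36.3, 40.9 and 29.3 in large. The 8 that could be tested had a median log2 fold change of -0.71, and 1 had an unadjusted p under 0.05, lower (2.77% of all genes). A wider set of 56 pituitary-typical genes, chosen by the limits used for gonad, overlapped between the groups. They stood at a median of 0.471%, 0.394% and 0.344% of their pituitary level in small brain. In large brain the values were 0.389%, 0.354% and 0.304%. The hormone subunit gene cga stood in the brain libraries at 0.000766% to 0.0323% of its mean in small pituitary. LOC103393769 lay in the same range, at 0.00144% to 0.0258%. In small brain LOC103389827 stood at 0.219% to 0.283% of its small pituitary mean, LOC103380837 at 0.211% to 0.384% and agrp at 2.14% to 9.30%. In large brain LOC103389827 stood at 0.00708% to 0.0334%, LOC103380837 at 0.0161% to 0.0283% and agrp at 0% to 0.0771%, where cga stood at 0.000766% to 0.00892%. What part pituitary RNA has in the differences of these genes was not tested. The mean of pmch in small pituitary was 1.27 FPKM, below its level in every brain library.

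**Figure D2:**
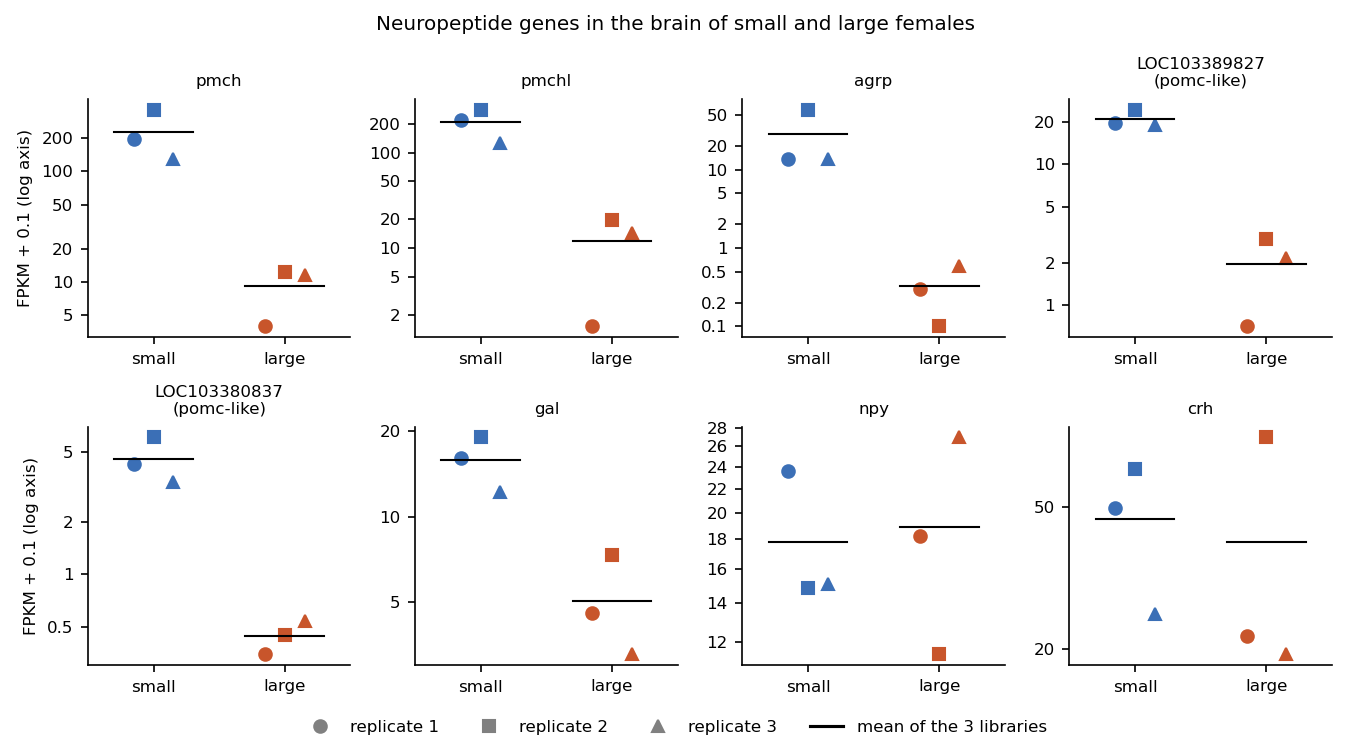
FPKM plus 0.1 on a log axis for 8 neuropeptide genes, with 1 point per brain library (3 small, 3 large) and a bar at the mean. The first 6 genes do not overlap between size classes, while npy and crh do.

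Galanin (gal), a peptide of feeding, arousal and prolactin release, followed with 16.00, 18.95 and 12.15 FPKM in small brain and 4.45, 7.22 and 3.17 in large. The pools did not overlap, and the log2 fold change was -1.54 (SE 0.30, edgeR adjusted p = 0.435). Neuropeptide Y (npy) did not share this direction. It stood at 23.47, 14.78 and 14.97 FPKM in small and at 18.17, 11.34 and 26.84 in large brain, a log2 fold change of 0.26 (SE 0.39, edgeR adjusted p = 0.948) that was -0.21 without large replicate 3. A cocaine- and amphetamine-regulated transcript-like gene, LOC103398437, overlapped as well, with a log2 fold change of 0.29 (SE 0.31). Orexin (hcrt), which promotes wakefulness and feeding, stood between 0.25 and 0.80 FPKM and was too low to test. The difference in feeding peptides was therefore not shared by every member of the list, and the interval of npy is wide.

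In the stress axis, corticotropin-releasing hormone (crh), the start of the cascade that ends in cortisol, stood at 49.52, 63.93 and 24.99 FPKM in small and at 21.53, 78.27 and 19.20 in large brain. Its groups overlapped, with a log2 fold change of -0.09 (SE 0.52). Its binding protein crhbp, which sequesters the peptide, had 7.43, 7.88 and 4.78 FPKM in small and 1.35, 2.34 and 2.02 in large. There the groups lay apart, with a log2 fold change of -1.65 (SE 0.35, edgeR adjusted p = 0.435).

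Peptides that act on the pituitary differed less as a group. Of 18 tested releasing, reproductive and neurohypophysial peptides, 2 had an unadjusted p under 0.05, both lower (2.77% of all genes). The median log2 fold change was -0.05, between -0.36 and 0.11 with each library left out. The somatostatin gene sst6.1 stood at 29.09, 39.26 and 20.05 FPKM in small and at 8.88, 16.58 and 6.76 in large brain. Its log2 fold change was -1.31 (SE 0.32, edgeR adjusted p = 0.535). In gonad this gene was more abundant, with means of 127 FPKM in small and 119 in large females. Somatostatin inhibits growth hormone release, and the other somatostatin genes did not share the difference. The somatostatin-1-like gene sst1.1 had a log2 fold change of 0.52 (SE 0.57), and sst1.2 one of 0.28 (SE 0.40). Thyrotropin-releasing hormone (trh) stood at 19.58, 100.32 and 9.78 FPKM in small and at 3.11, 10.72 and 12.52 in large brain. Small replicate 2 made most of that difference: the log2 fold change was -2.09 (SE 0.85) in all libraries and as small as -0.59 with 1 library left out. The gonadotropin-releasing hormone gene gnrh2 stood at 18.61 FPKM in large replicate 2 and at 0.55 to 4.85 in the other 5 libraries.

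Among 21 tested opioid and other peptide genes, prodynorphin (pdyn), the precursor of dynorphins, had the smallest p. It stood at 54.54, 79.63 and 44.23 FPKM in small and at 37.12, 25.18 and 26.95 in large brain, a log2 fold change of -0.84 (SE 0.23, edgeR adjusted p = 0.582). The median of that list was -0.19, and -0.083 without large replicate 3. Of 35 tested receptors of these peptides, 0 had an unadjusted p under 0.05 with edgeR and 0 were called by DESeq2, and their median log2 fold change was 0.05. Receptors were lowest in large replicate 3, and without it the median was 0.29 and 5 of 36 had an unadjusted p under 0.05, all higher. In that fit 1274 of all 17193 genes did, in either direction. Without large replicate 1 the median of the receptors was -0.24.

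In lipoprotein handling, LOC103395967 was the 1 gene that passed with edgeR. DESeq2 called 3 genes of the list lower and 0 higher (0.258% and 0.346% of all genes). Of 37 tested genes of this list, 5 had an unadjusted p under 0.05 on the lower side (2.77% of all genes) and 0 on the higher. Their median log2 fold change was -0.25 and lay between -0.36 and -0.21 with each library left out. Of the 37, 17 were at least 5 times more abundant in another tissue, and the other 20 had a median of -0.125, with 3 on the lower side. The inhibitor of lipoprotein lipase angptl4 stood at 64.36, 51.54 and 48.13 FPKM in small and at 36.55, 27.58 and 15.84 in large brain. Its groups did not overlap, with a log2 fold change of -0.91 (SE 0.24, edgeR adjusted p = 0.556), and -0.71 without large replicate 3. Lipoprotein lipase (lpl), which releases fatty acids from lipoproteins, stood at 87.92, 142.40 and 73.14 FPKM in small and at 43.58, 43.25 and 39.38 in large brain. The large pools were close together and all below the small pools, with a log2 fold change of -1.10 (SE 0.22, edgeR adjusted p = 0.435).

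An apolipoprotein A-IV-like gene, LOC103389010, went from 26.85, 19.36 and 17.62 FPKM in small to 13.20, 9.41 and 3.26 in large brain. Its log2 fold change was -1.18 (SE 0.38, edgeR adjusted p = 0.656). The gene is far more abundant in liver, with a mean of 2734 CPM in small liver against 20.3 in small brain. The part of liver-type RNA in its difference was not tested. The lipoprotein receptor scarb1 had a log2 fold change of -0.52 (SE 0.21, edgeR adjusted p = 0.759). Apolipoprotein E (apoeb), the main lipid carrier between brain cells, stood at 1726, 1764 and 1320 FPKM in small and at 1817, 1267 and 707 in large brain. Its groups overlapped, and the log2 fold change of -0.22 (SE 0.26) was 0.00 without large replicate 3.

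Genes of fatty acid uptake, storage and oxidation centred on no difference, with a median log2 fold change of -0.06 over 50 tested members. Of these, 3 had an unadjusted p under 0.05 on the higher side (3.57% of all genes). A perilipin-2-like gene, LOC103383647, of the family that coats lipid droplets, stood at 0.33, 0.12 and 0.82 FPKM in small and at 1.64, 3.12 and 5.76 in large brain. Its log2 fold change was 3.20 (SE 0.77, edgeR adjusted p = 0.535), and 2.52 without large replicate 3. The gene is typical of gonad, with a mean of 739 CPM in small gonad against 0.472 in small brain, and gonad-type genes were also highest in large replicate 3. The perilipin-2 gene plin2 overlapped between the groups and had a log2 fold change of -0.98 (SE 0.43, edgeR adjusted p = 0.790). LOC103387509, annotated as an intestinal fatty acid-binding protein, was abundant in every library: 855, 725 and 984 FPKM in small and 1252, 1169 and 1501 in large brain. The groups did not overlap, at a log2 fold change of 0.78 (SE 0.21, edgeR adjusted p = 0.582).

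The adipocyte-type binding protein fabp4b stood at 14.19, 8.34 and 5.51 FPKM in small and at 17.39, 27.30 and 77.25 in large brain. Large replicate 3 was the highest, and the log2 fold change of 2.33 (SE 0.64, edgeR adjusted p = 0.582) was 1.31 without it. Its mean in small gonad was 4046 CPM, and that of elovl3 was 1332 CPM. The part of gonad-type RNA in these 3 genes was not tested. Brain fatty acid-binding protein (fabp7), a radial glial lipid carrier, was even, with means of 2510 ± 77.8 and 2518 ± 47.2 FPKM (SD, n = 3 each). Its log2 fold change was 0.16 (SE 0.13). Fatty acid and sterol synthesis was even too, with a median log2 fold change of -0.01 over 52 tested genes. Fatty acid synthase (fasn) had a log2 fold change of -0.01 (SE 0.22) and the desaturase scd one of -0.10 (SE 0.16). The elongase elovl3, at 9.58 FPKM in large replicate 3 and at most 2.34 elsewhere, had a log2 fold change of 2.53 (SE 0.84) that was 1.01 without that library.

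**Figure D3:**
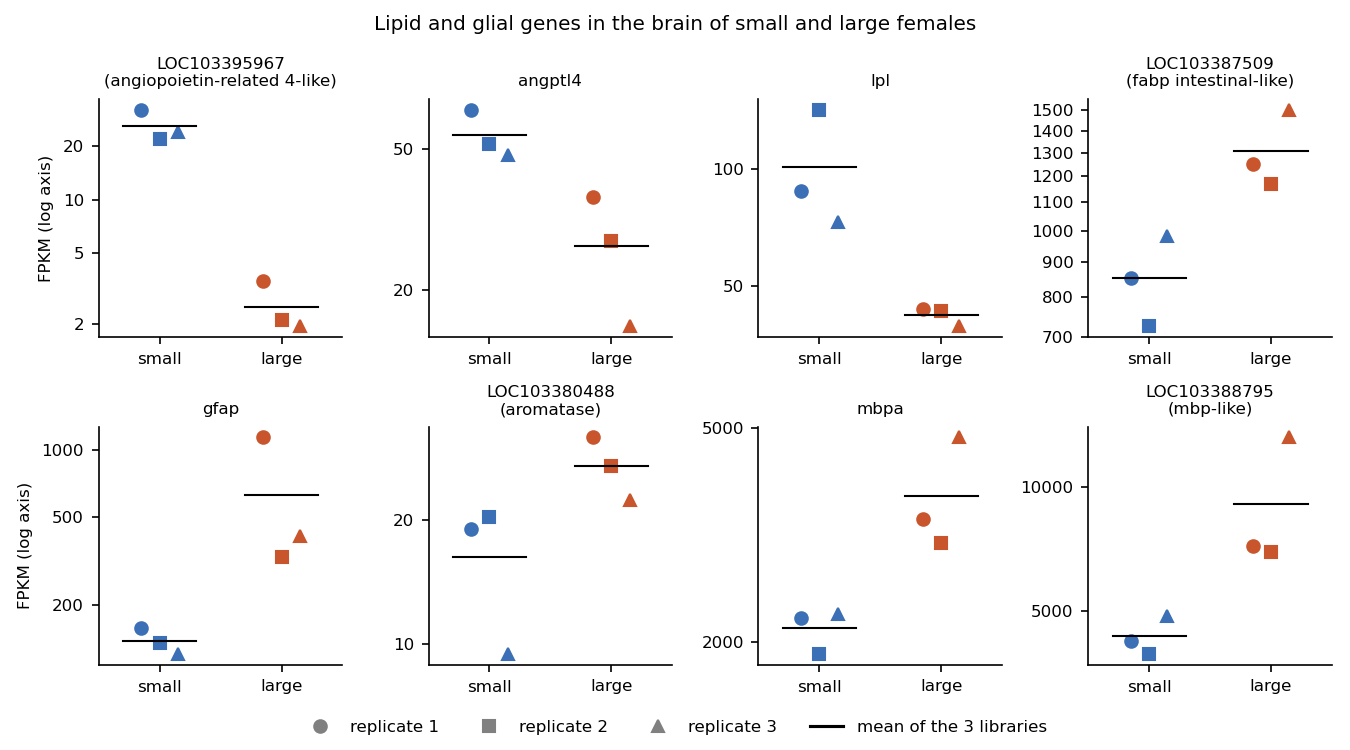
FPKM on a log axis for 4 lipid genes (upper row) and 4 glial genes (lower row), with 1 point per brain library (3 small, 3 large) and a bar at the mean. In all 8 panels the size classes do not overlap; large replicate 1 is highest for gfap and large replicate 3 for both myelin basic protein genes.

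Of the radial glia and astroglia markers, 3 of 32 tested had an unadjusted p under 0.05, all higher in large brain (3.57% of all genes), and the median log2 fold change was 0.14. That median was 0.057 without large replicate 3 and 0.036 without small replicate 3. Glial fibrillary acidic protein (gfap), the intermediate filament of radial glia and astrocytes, stood at 158.13, 134.28 and 120.27 FPKM in small brain. In large brain it stood at 1144.38, 329.84 and 412.30. The small pools were close together, whereas large replicate 1 was well above the other large pools. The log2 fold change was 2.32 (SE 0.42, edgeR adjusted p = 0.368), between 1.64 and 2.64 with each library left out. Its level in the other tissues was at most 6.66 FPKM.

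Aromatase, which turns androgens into estrogens, is held in radial glia in the brain of other teleosts. LOC103380488, an aromatase gene with at most 0.05 FPKM in gonad, stood at 18.99, 20.26 and 9.43 FPKM in small and at 31.65, 26.93 and 22.26 in large brain. Its log2 fold change was 0.88 (SE 0.26, edgeR adjusted p = 0.609). Pituitary held similar levels of this gene, with 23.12, 25.75 and 23.36 FPKM in small and 22.06, 33.38 and 27.07 in large females. S100-B (s100b), a calcium-binding protein of glia, had means of 5266 ± 622 and 8511 ± 2834 FPKM (SD, n = 3 each), a log2 fold change of 0.88 (SE 0.30, edgeR adjusted p = 0.662) that was 0.44 without large replicate 3. Other defining genes of the same cells did not share this. Glutamine synthetase (glul) was lower in every large pool than in every small pool, with means of 1599 ± 145 and 1204 ± 208 FPKM in small and large brain. Its log2 fold change was -0.27 (SE 0.13, edgeR adjusted p = 0.807). The glutamate transporter slc1a2 had one of -0.27 (SE 0.18). In bulk tissue, more cells of a type and more RNA per cell cannot be told apart.

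Myelin genes were split. Of 28 tested, 3 had an unadjusted p under 0.05 on the higher side and 1 on the lower (3.57% and 2.77% of all genes). The median log2 fold change was 0.06. The sign of that median turned without large replicate 3, to -0.13, and it was 0.25 without large replicate 1. Myelin basic protein, the protein that compacts the sheath, was among the most abundant messages. The myelin basic protein-like gene mbpa stood at 2213, 1899 and 2252 FPKM in small and at 3385, 3054 and 4810 in large brain, a log2 fold change of 1.001 (SE 0.25, edgeR adjusted p = 0.535). A second such gene, LOC103388795, stood at 4235, 3926 and 4873 FPKM in small and at 7194, 6966 and 13213 in large brain, a log2 fold change of 1.26 (SE 0.32, edgeR adjusted p = 0.551). Both were highest in large replicate 3, and without it the log2 fold changes were 0.65 and 0.75. The oligodendrocyte gene bcas1 had a log2 fold change of 0.93 (SE 0.29, edgeR adjusted p = 0.648), and 0.47 without that library.

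The proteolipid protein genes and myelin protein zero overlapped between the groups in normalized CPM, and claudin-11 was lower without overlap. Proteolipid protein plp1b had means of 987 ± 130 and 1109 ± 378 FPKM (SD, n = 3 each), with a log2 fold change of 0.32 (SE 0.28), and plp1a had a log2 fold change of -0.57 (SE 0.30). Myelin protein zero (mpz) stood at 354 ± 42.5 and 354 ± 140 FPKM, with a log2 fold change of 0.14 (SE 0.26). Claudin-11 (cldn11a), a tight junction protein of the sheath, stood at 11.18, 10.29 and 7.49 FPKM in small and at 5.21, 3.07 and 2.69 in large brain, a log2 fold change of -1.26 (SE 0.31, edgeR adjusted p = 0.535). Ermin (ermn), of the same list, stood at 5.11, 4.42 and 7.30 FPKM in small and at 8.59, 7.97 and 8.13 in large brain. Its log2 fold change was 0.69 (SE 0.30, edgeR adjusted p = 0.790). Levels higher without overlap were thus held by myelin basic protein, bcas1 and ermn, and not by the other myelin genes named here.

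Microglia, the macrophages of the brain, gave 3 genes with an unadjusted p under 0.05 among 23 tested, all lower in large brain (2.77% of all genes), and a median log2 fold change of -0.18. Without large replicate 3, in which these markers were lowest, the median was -0.02, with 2 genes on the higher and 1 on the lower side. It ranged from -0.28 to -0.02 with each library left out. The signalling adaptor tyrobp stood at 7.22, 10.65 and 6.83 FPKM in small and at 4.24, 4.38 and 2.76 in large brain. It did not overlap, with a log2 fold change of -0.96 (SE 0.39, edgeR adjusted p = 0.759). Cathepsin L (ctsla) had a log2 fold change of -0.35 (SE 0.13) and granulin (grn) one of -0.26 (SE 0.11). The defining receptor csf1r had one of 0.10 (SE 0.33) and its duplicate csf1rb one of 0.34 (SE 0.15), and mpeg1 was listed at 0 in all 6 libraries.

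Regional genes also differed between the pools, and they were listed after values of these data had been seen. Of 17 tested telencephalon regulators, 8 had an unadjusted p under 0.05, all higher in large brain (3.57% of all genes). Their median log2 fold change was 0.997, and 0.63 to 1.32 with each library left out. The factor dlx2 of inhibitory neurons stood at 0.65, 0.82 and 1.04 FPKM in small and at 2.98, 1.85 and 1.75 in large brain, a log2 fold change of 1.52 (SE 0.35, edgeR adjusted p = 0.490). In the sum over the list, large replicates 1 and 2 held 160 and 93.2 FPKM, and large replicate 3, at 57.1, lay within the small range of 51.8 to 64.6. In normalized CPM the median log2 deviation of the members was -0.17 in large replicate 3, above the small libraries (-0.39 to -0.35) and below large replicates 1 and 2 (1.04 and 0.30). The large pools were not alike in this respect, and large replicate 1, the highest, was also the highest in gfap and the lowest in pmch and pmchl.

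Midbrain regulators summed to 36.8, 37.0 and 39.0 FPKM in small and to 30.2, 22.8 and 22.2 in large brain, with a median log2 fold change of -0.63 over 9 tested genes that was -0.33 without large replicate 2. The 12 tested hypothalamus regulators and neurohypophysial peptides had a median of -0.28, between -0.58 and -0.085 with each library left out. The hypothalamic factor otp stood at 5.87, 7.79 and 3.77 FPKM in small and at 1.78, 3.81 and 2.13 in large brain, a log2 fold change of -1.02 (SE 0.37, edgeR adjusted p = 0.697). The Hox gene hoxb5b, a hindbrain and spinal cord gene, ranged within small brain from 0.08 to 17.07 FPKM, highest in replicate 2, which also had the most pmch, agrp, gal and trh. Cerebellum genes had a median of -0.07 over 11 tested. What part the share of each region in a pool has in the neuropeptide and glial differences was not tested.

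**Figure D4:**
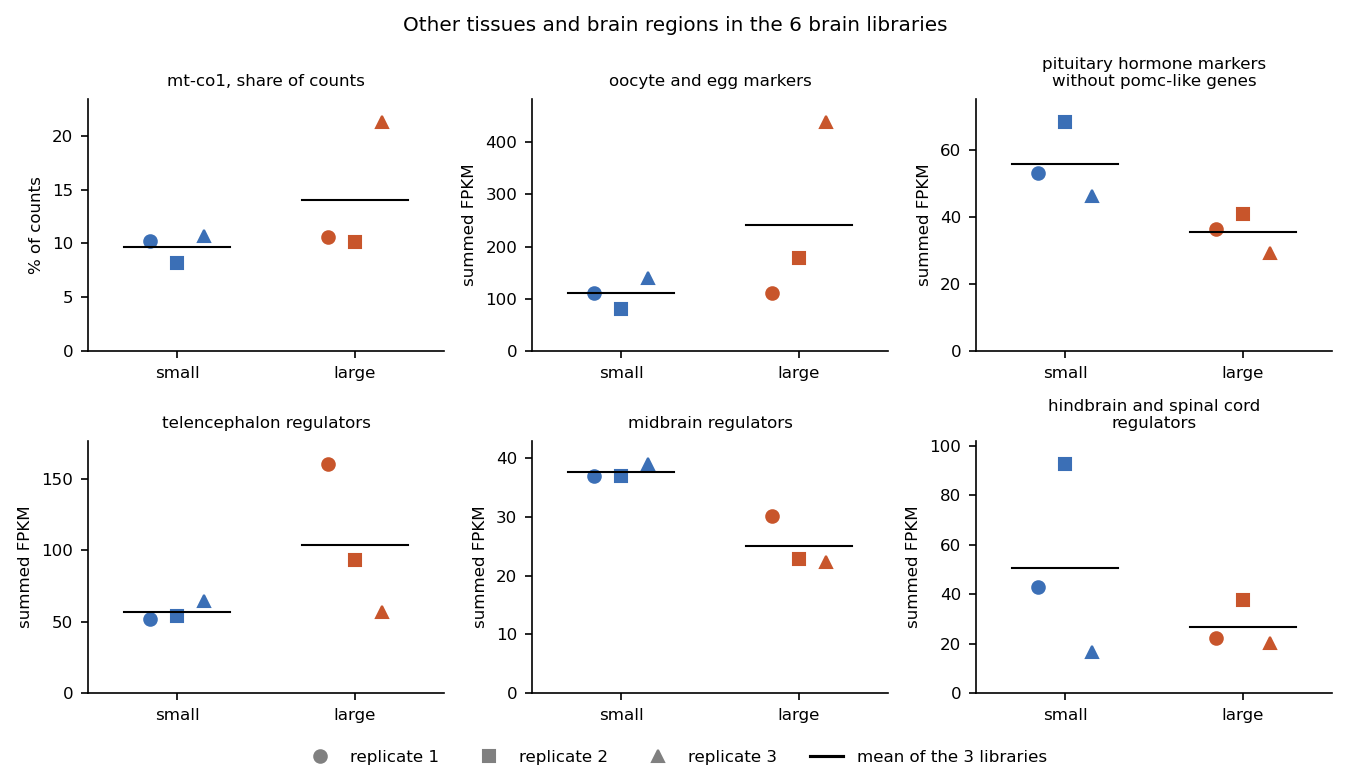
Share of counts of mt-co1 (%) and summed FPKM of 5 marker lists, all from 0, with 1 point per brain library (3 small, 3 large) and a bar at the mean. Large replicate 3 stands alone in mt-co1 (21.3%) and oocyte markers (439 FPKM), and large replicate 1 in telencephalon regulators (160 FPKM).

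Neuron markers as a whole had a median log2 fold change of -0.20 over 52 tested genes. Of these, 3 had an unadjusted p under 0.05 on each side (3.57% of all genes higher, 2.77% lower). Without large replicate 3, in which they were lowest, the median was -0.096, with 7 genes on the higher and 2 on the lower side. In that fit 1274 of all 17193 genes had an unadjusted p under 0.05, in either direction. The median of the neuron markers was nearest to 0 without small replicate 3, at -0.036. The 3 genes on the lower side act in dopamine neurons, and none passed. Tyrosine hydroxylase (th), the rate-limiting enzyme of dopamine synthesis, stood at 5.75, 7.03 and 2.39 FPKM in small and at 2.55, 2.48 and 0.90 in large, a log2 fold change of -1.21 (SE 0.46, edgeR adjusted p = 0.740). The decarboxylase ddc had a log2 fold change of -1.68 (SE 0.59) and the dopamine transporter slc6a3 one of -1.87 (SE 0.76). In FPKM slc6a3 was the 1 of the 3 whose groups did not overlap.

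Genes that glucocorticoids induce in mammals and fast-responding transcription factors held further low values in large brain. Of 18 tested glucocorticoid-responsive genes, 4 had an unadjusted p under 0.05 on the lower and 1 on the higher side. Of 32 tested immediate early genes, 7 did on the lower and 0 on the higher side. Over all genes the shares were 2.77% on the lower and 3.57% on the higher side. The medians of the lists were -0.18 and -0.17. Of the 18 glucocorticoid-responsive genes, 4 were at least 5 times more abundant in another tissue. The other 14 had a median of -0.18, with 2 on the lower and 1 on the higher side. Of the 32 immediate early genes, 7 were at least 5 times more abundant in another tissue. The other 25 had a median of -0.15, with 3 on the lower and 0 on the higher side. The glucocorticoid list without large replicate 3 had a median of -0.29, with 5 genes on the lower and 1 on the higher side. The immediate early list had one of -0.41, with 10 and 3. In that fit 1274 of all 17193 genes had an unadjusted p under 0.05, in either direction. The list medians nearest to 0 were -0.082, without small replicate 2, and -0.028, without large replicate 2. The chaperone of the glucocorticoid receptor fkbp5 stood at 27.16, 51.12 and 39.79 FPKM in small and at 7.72, 14.35 and 7.51 in large brain. Its pools were well apart, with a log2 fold change of -1.85 (SE 0.29, edgeR adjusted p = 0.295). The transcription factor cebpd stood at 48.72, 66.72 and 42.14 FPKM against 25.13, 22.86 and 21.10, a log2 fold change of -1.03 (SE 0.17, edgeR adjusted p = 0.347). Its relative cebpb had a log2 fold change of -1.01 (SE 0.19) and fosb one of -1.22 (SE 0.36). The mean of cebpd was 74.2 CPM in small brain and 353 CPM in small gonad. The mean of cebpb was 25.8 CPM in small brain and 165 CPM in small liver. What part RNA of other tissues has in these differences was not tested. The stress gene ddit4, an inhibitor of growth signalling through mTOR, stood at 114.47, 115.64 and 147.88 FPKM in small and at 59.01, 66.20 and 74.96 in large, a log2 fold change of -0.75 (SE 0.20, edgeR adjusted p = 0.578). The glucocorticoid receptor gene nr3c1(ncbi-103394845) had one of 0.57 (SE 0.17, edgeR adjusted p = 0.628), and its copy nr3c1(ncbi-103391186) one of 0.01 (SE 0.18).

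The growth hormone and IGF axis centred on 0 in brain, with a median log2 fold change of -0.00 over 28 tested genes. The 3 genes with an unadjusted p under 0.05 on the lower side (2.77% of all genes) encode IGF-binding proteins. So does the 1 on the higher side (3.57% of all genes). The latter, LOC103380461 (insulin-like growth factor-binding protein 7), overlapped between the groups and is abundant in gonad, with a log2 fold change of 2.29 (SE 0.96, edgeR adjusted p = 0.763). The gene igfbp1a, whose product restrains IGF action, stood at 6.61, 15.43 and 3.33 FPKM in small and at 1.29, 2.23 and 0.84 in large brain, a log2 fold change of -2.36 (SE 0.58, edgeR adjusted p = 0.535). The genes igfbp5b and igfbp3 had log2 fold changes of -1.07 (SE 0.35) and -1.001 (SE 0.42).

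Of 34 tested vascular and meningeal markers, 3 had an unadjusted p under 0.05 on the higher and 4 on the lower side. Over all genes the shares were 3.57% and 2.77%. The median log2 fold change of the markers was -0.14. The median was -0.22 without large replicate 3, with 2 and 7, and without large replicate 1 it was -0.042. The glucose transporter of the blood-brain barrier slc2a1 stood at 100.17, 119.33 and 97.69 FPKM in small and at 55.21, 59.60 and 64.42 in large brain, a log2 fold change of -0.66 (SE 0.16, edgeR adjusted p = 0.535). The endothelial receptor kdr had one of -0.65 (SE 0.16, edgeR adjusted p = 0.535). The 3 on the higher side were collagen I genes, which are far more abundant in muscle, and none was called by edgeR. DESeq2 called 1 gene of this list higher and 1 lower (0.346% and 0.258% of all genes). With genes typical of another tissue left out, 0 were on the higher side with edgeR. The mean of col1a2 was 38.0 CPM in small brain and 2316 CPM in small muscle, and it stood at 7.17, 6.99 and 7.95 FPKM in small and at 12.66, 9.68 and 12.50 in large brain. Its log2 fold change was 0.82 (SE 0.18, edgeR adjusted p = 0.477), while col1a1a and col1a1b overlapped in FPKM. Among thyroid genes, the thyroxine transporter slco1c1 had a log2 fold change of -1.12 (SE 0.35) and the inactivating deiodinase dio3b one of 0.71 (SE 0.25).

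Cell cycle and neurogenesis genes were higher in large brain in 43 of 48 tested, where 8315 of all 16878 genes were. Of the 48, 12 had an unadjusted p under 0.05 on the higher side and 1 on the lower (3.57% and 2.77% of all genes). The median log2 fold change of the list was 0.47. Without large replicate 3 it was 0.26, and 7 were on the higher side. Of the 48, 39 were at least 5 times more abundant in another tissue. The other 9 had a median of 0.23, with 2 at an unadjusted p under 0.05 on the higher side. The replication gene mcm7 stood at 4.29, 4.74 and 5.31 FPKM in small and at 7.84, 7.10 and 8.54 in large brain. Large replicate 3 was the highest, and the log2 fold change was 0.87 (SE 0.20, edgeR adjusted p = 0.479). The mean of mcm7 was 14.1 CPM in small brain and 890 CPM in small gonad. The mitotic cyclin ccnb2, at 18.87 FPKM in large replicate 3 and 3.72 and 5.48 in the other large pools, had a log2 fold change of 2.54 (SE 0.72) and 1.35 without that library. Its mean in small gonad was 2779 CPM. The part of gonad-type RNA in these genes was not tested.

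Oocyte and egg genes were the list with the highest median, 2.56 over 28 tested genes. Of these, 18 had an unadjusted p under 0.05 on the higher side (3.57% of all genes). Their summed level was 112, 81.9 and 141 FPKM in small brain, 111 and 178 in large replicates 1 and 2 and 439 in large replicate 3. Without large replicate 3 the median was 1.17, with 13 genes on the higher side. The egg envelope gene zpcx stood at 1.71, 0.74 and 1.03 FPKM in small and at 3.55, 6.53 and 22.03 in large brain. The oocyte regulator btg4 stood at 1.05, 0.10 and 0.17 FPKM in small and at 3.22, 4.53 and 19.37 in large. For both genes large replicate 3 was the highest, and the other large pools were above the small ones. Both were in the ranking by size, which required no overlap, so this order followed from the choice. In the sum over the list, large replicate 1 lay within the small range. Its gonad-typical genes did so too, with 0.722% against 0.607% to 0.742% in small brain. In normalized CPM its median log2 deviation for the list was -0.25, just above the small libraries (-1.23 to -0.28). The log2 fold changes were 3.42 (SE 0.77) for zpcx and 4.53 (SE 1.02) for btg4, each with an edgeR adjusted p of 0.477, and 2.15 and 3.14 without large replicate 3. Somatic ovarian genes had a median of 0.08 over 11 tested, and -0.22 without large replicate 3. How gonad-type RNA came into these libraries was not tested.

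**Figure D5:**
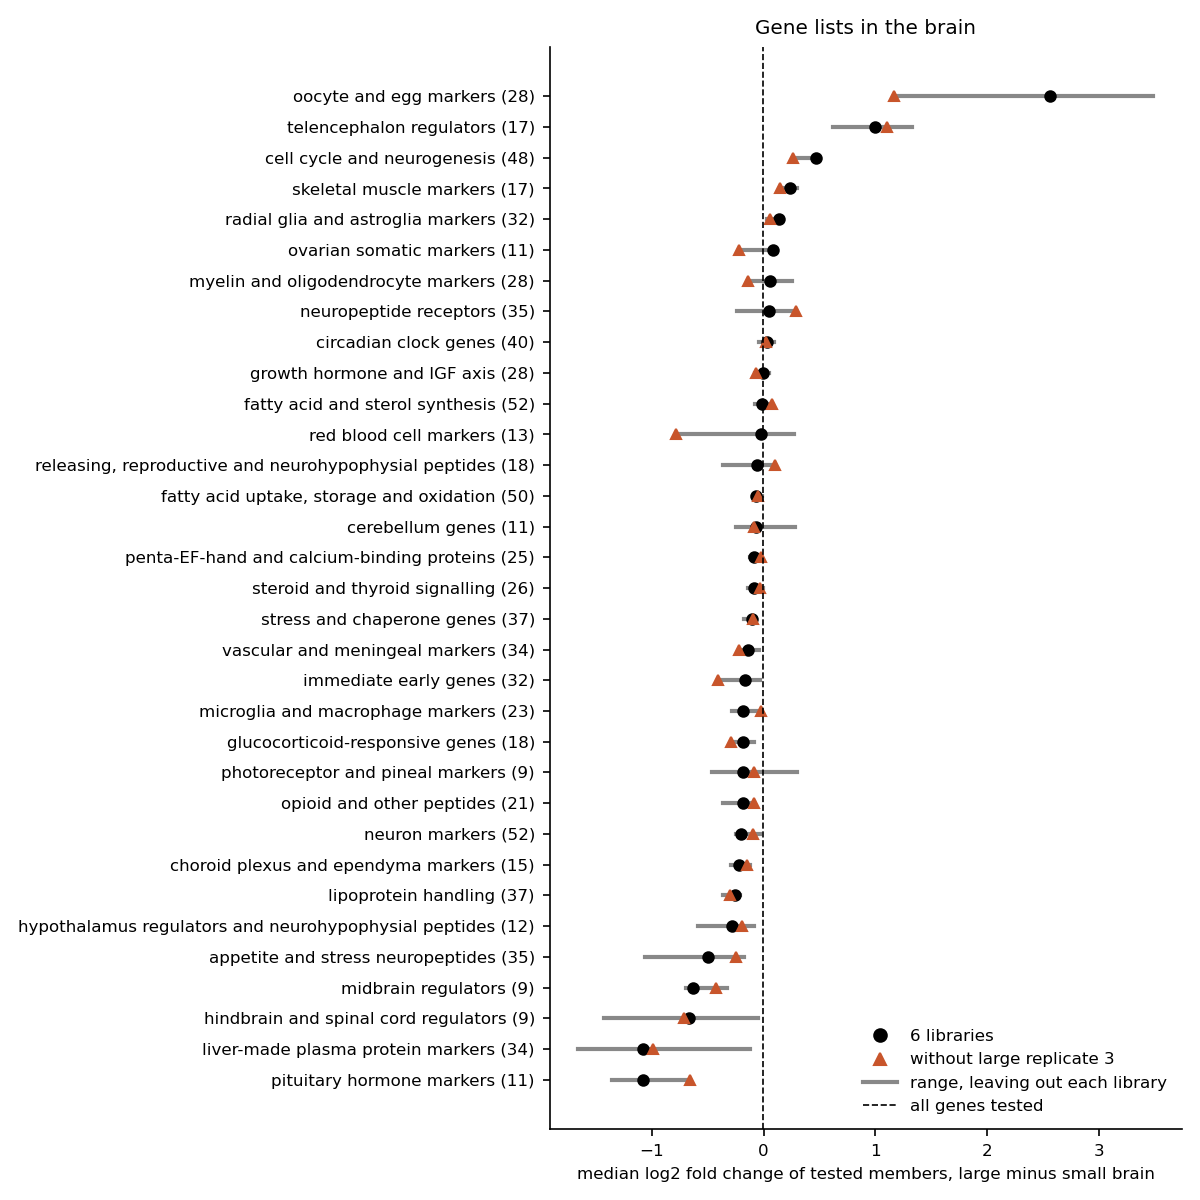
Median log2 fold change (large minus small brain) of the tested members of each gene list, with the number tested in brackets. Points are the value in 6 libraries, bars the range with each library left out, triangles the value without large replicate 3 and the dashed line the median of all genes; oocyte markers (2.56) are highest and pituitary hormone markers (-1.07) lowest.

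Genes were also ranked by size alone. An unadjusted p under 0.01, at least 5 CPM in the higher group and no overlap were met by 249 genes (1.48% of those tested). Of these, only genes with a symbol or product name were ranked. The 10 largest rises in value were LOC103389442 and 9 genes that were at least 5 times more abundant in another tissue. Those 9 included the egg genes btg4 and zpcx and were each highest in large replicate 3. When genes of other tissues were left out, a choice made after seeing the data, gfap and dlx2 were among those that followed. The 10 largest differences on the lower side included agrp, pmch, pmchl, LOC103389827 and LOC103395967. Of the remaining 5, 4 were highest in small replicate 1. Of all 10, 5 were at least 5 times more abundant in another tissue, among them agrp, LOC103389827 and LOC103395967. LOC103391006, annotated as a soluble guanylate cyclase 88E-like gene, stood at 123.31, 48.98 and 32.66 FPKM in small and at 14.07, 0.90 and 4.35 in large brain, a log2 fold change of -3.28 (SE 0.84, edgeR adjusted p = 0.551). The cGMP phosphodiesterase gene pde9aa was also highest in small replicate 1, with 57.32, 19.34 and 22.19 FPKM against 9.07, 0.69 and 4.34 and a log2 fold change of -2.67 (SE 0.72, edgeR adjusted p = 0.582). Both genes had their lowest level in large replicate 2. The protein MGARP gene (mgarp), known in mammals from mitochondria of steroid-making cells and retina, stood at 23.89, 26.37 and 15.45 FPKM in small and at 4.65, 4.70 and 1.02 in large brain, a log2 fold change of -2.53 (SE 0.41, edgeR adjusted p = 0.347).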

How the data were processed

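The deposited table covered 22292 genes in 30 libraries. Each gene had an FPKM value and an estimated count of fragments per library, both computed by the authors and named so in the file headers. Of the estimated counts the authors deposited, per the file headers, 2% were not whole, and all were rounded for the tests. The submitters' processing notes name edgeR. The aligner, the quantifier and the build: not given in the sources used here. Symbols came from the table for 11120 genes and from the RefSeq gene table for another 3668.

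Large and small brain were compared in their 6 libraries by the two-sided quasi-likelihood test of edgeR 4.0.16 under R 4.3.3, after filterByExpr and TMM scaling, p-values adjusted after Benjamini-Hochberg and called under 0.05. The SE is the size of the log2 fold change over the square root of F. The brain effect was set against the pituitary effect in an interaction model. Alternatives used DESeq2 1.42.0 and limma 3.58.1 on log2 FPKM with pseudocounts of 1 and 0.1. The fit was tested on simulated data with the means, library sizes and spread of these libraries. It recovered 24% of 100 genes changed 2-fold and 82% of 100 changed 4-fold, with 14 false calls.

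Named genes were those past the threshold; the 10 with the largest rise and the 10 with the largest fall at an unadjusted p under 0.01, at least 5 CPM in the higher group, no overlap and a name; and, per list, up to 5 members with the smallest p plus its defining genes. Members and lists were chosen with earlier results of these data known. The 5 lists of region genes, the limits for tissue-typical genes (50 CPM, 20-fold), the use of CPM rather than FPKM for overlap, and the fit without both replicates 3 were chosen after seeing the data. LOC103389441 and pde9aa were likewise named after their values were seen, as was mgarp. Intervals are exact 95% for counting error, with group depth taken from elavl3. With 3 against 3, an exact permutation test of 1 value cannot go below 0.1 and was not used. Tables and figures used Python 3.11.15, pandas 2.3.3, scipy 1.17.1 and matplotlib 3.10.9. A gene of the region lists is not reported here.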

Additional observations from a re-analysis of the deposited data

Results flagged for a closer look

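The size effect on 2 named genes differed between brain and pituitary by an edgeR interaction test. For LOC103395967, the angiopoietin-related protein 4-like gene, the brain effect minus the pituitary effect was -2.23 (log2, SE 0.32, edgeR adjusted p = 0.0411). It was lower in all large libraries of both tissues. For jund, a subunit of the AP-1 transcription factor, the difference was -2.42 (log2, SE 0.31, edgeR adjusted p = 0.0391). Brain held 34.35, 40.45 and 31.82 FPKM of jund in small and 21.76, 29.13 and 18.28 in large females. Pituitary held 3.21, 5.07 and 5.49 in small and 14.87, 17.02 and 22.47 in large females, the opposite direction. With a replicate block the edgeR adjusted p was 0.0599 for LOC103395967 and 0.0568 for jund, and with 1 library left out it ran from 0.0352 to 0.175 and from 0.0161 to 0.134. In the fit of all 30 libraries it was 0.241 for LOC103395967 and 0.0224 for jund.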

How the results depend on the processing

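The count of 2 genes past the edgeR threshold was 3 with no filter on low counts, 1 without genes of other tissues (which leaves LOC103395967 untested), 10 with a replicate block, 55 in the fit of all 30 libraries and 103 with DESeq2. With 1 library left out it ran from 0 to 3: it was 0 without small replicate 1 (755 genes at an unadjusted p under 0.05) and without small replicate 3 (1094), and 1 without large replicate 2 or 3. It was 7 without large replicate 3 and small replicate 3. The count of 12 genes whose effect differed from pituitary was 0 with the replicate block (2193 at an unadjusted p under 0.05), 32 in the fit of all 30 libraries, and 0 to 57 with 1 library left out. The causes were not tested. Correlations of same-numbered deviations were -0.03, 0.24 and 0.18, and numbers 2 and 3 alone correlated best with their own. With so few libraries these values cannot settle whether replicate numbers pair the samples, and the main fit left them unpaired. Signs turned in genes near 0. With limma on log2(FPKM + 1), with or without a filter, and then on log2(FPKM + 0.1), csf1r was -0.13 and -0.17, gnrh3 -0.27 and -1.07, mpz -0.064 and -0.065, sst1.1 -0.052 and -0.083, and sst1.2 -0.011 and -0.018. The value of gnrh3 was -0.086 with the replicate block and -0.0035 without genes of other tissues, and that of fasn was 0.0091 in the fit of all 30 libraries. Without large replicate 3 and small replicate 3, LOC103398437 was -0.10 and npy -0.31. With libraries left out, the ranges were -0.10 to 0.43 for LOC103398437, -0.55 to 0.0037 for apoeb, -0.97 to 0.21 for crh, -0.19 to 0.41 for csf1r, -0.20 to 0.16 for fasn, -0.49 to 0.76 for gnrh3, -0.14 to 0.38 for mpz, -0.31 to 0.56 for npy, -0.28 to 0.010 for scd, -0.36 to 0.96 for sst1.1 and -0.15 to 0.61 for sst1.2. Of 134 named genes with alternatives, DESeq2 put 47 past its threshold, the fit of all 30 libraries 26 and the replicate block 8. Depth limits low genes: gnrh3 rests on 26 counts in small and 20 in large brain.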
